A study of Mus musculus with 6 samples.

Results

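Type I interferon stimulated genes are described here as a set of 37 genes, taken by symbol from the 50600 genes of a count table of macrophages from pancreatic islets and from fat. Type I interferons are cytokines that cells release after sensing foreign or misplaced nucleic acid. They bind a receptor made of Ifnar1 and Ifnar2, whose kinases Jak1 and Tyk2 activate a transcription factor complex that includes Stat2 and Irf9, and that complex binds interferon-stimulated response elements in the promoters of the target genes. The targets include antiviral effectors, sensors of viral RNA and DNA, and modifiers that tune the response, and macrophages at rest keep many of them expressed at a low level. All 37 genes were present in the table once each, and all 37 passed the filter on low counts. The set was listed by function and not by the values measured here, although earlier results of these data were known when it was drawn up.

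Islet macrophages and macrophages of epididymal white adipose tissue, a visceral fat depot, came from C57BL/6J males aged 12 weeks on chow diet, with no further treatment and no allele or agent that distinguishes the groups. They had been sorted by flow cytometry as live cells carrying CD45, F4/80 and CD64. Each tissue had 3 libraries, numbered 2, 4 and 6, and equal numbers in both tissues were taken to mark 1 animal. Whether a library pools animals is not stated in the labels, so p-values measure the spread between these libraries. Bulk counts were read, so fewer cells of a kind and less RNA per cell cannot be told apart. Transcripts of the sorting markers were present throughout. In CPM, counts scaled to a common library size, Adgre1 (F4/80) stood at 485 to 1066 in islet and 459 to 583 in fat libraries, Ptprc (CD45) at 616 to 963 and 417 to 511, and Fcgr1 (CD64) at 73.4 to 106 and 53.1 to 72.8. Total counts were between 4089980 and 9235591, lowest in islet library 4.

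Most of the stimulated genes had estimates above 0, higher in islet than in fat macrophages, and 14 passed the test for a rise. With edgeR's quasi-likelihood test and a Benjamini-Hochberg adjusted p under 0.05 over 12152 genes, 14 of the 37 were higher (37.8%, where 8.97% of all genes tested were called higher) and 1 was lower (2.70%, where 10.5% of all genes were called lower). The other 22 did not pass, 20 of them with an estimate above 0. The median log2 difference, islet minus fat, was 1.16 over the 37 genes and 0.01 over all genes tested. All 3 islet libraries lay above all 3 fat libraries for 23 genes (62.2%, against 18.2% of all genes), and all 3 lay below for Oas2, Ifi203 and Samd9l (8.11%, against 22.3% of all genes). Taken number by number, the median log2 difference of the 37 genes was 0.47, 0.55 and 1.5 for numbers 2, 4 and 6. Over all genes these medians were -0.01, -0.12 and -0.02. In the islet library of the pair 29, 30 and 33 of the 37 genes were higher, against 6045, 5550 and 5995 of all 12152. Without islet replicate 6, 10 genes were called higher and 2 lower, in a fit that called 12.7% of all genes higher and 15.6% lower. Without fat replicate 4, 2 genes were called higher and 1 lower, in a fit that called 3.66% of all genes higher and 5.39% lower. With islet replicates 2 and 4 both left out, a fit in which the lone islet library borrows its spread from fat, 25 were called higher and 1 lower, against 14.4% and 20.4% of all genes.

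**Figure D1:**
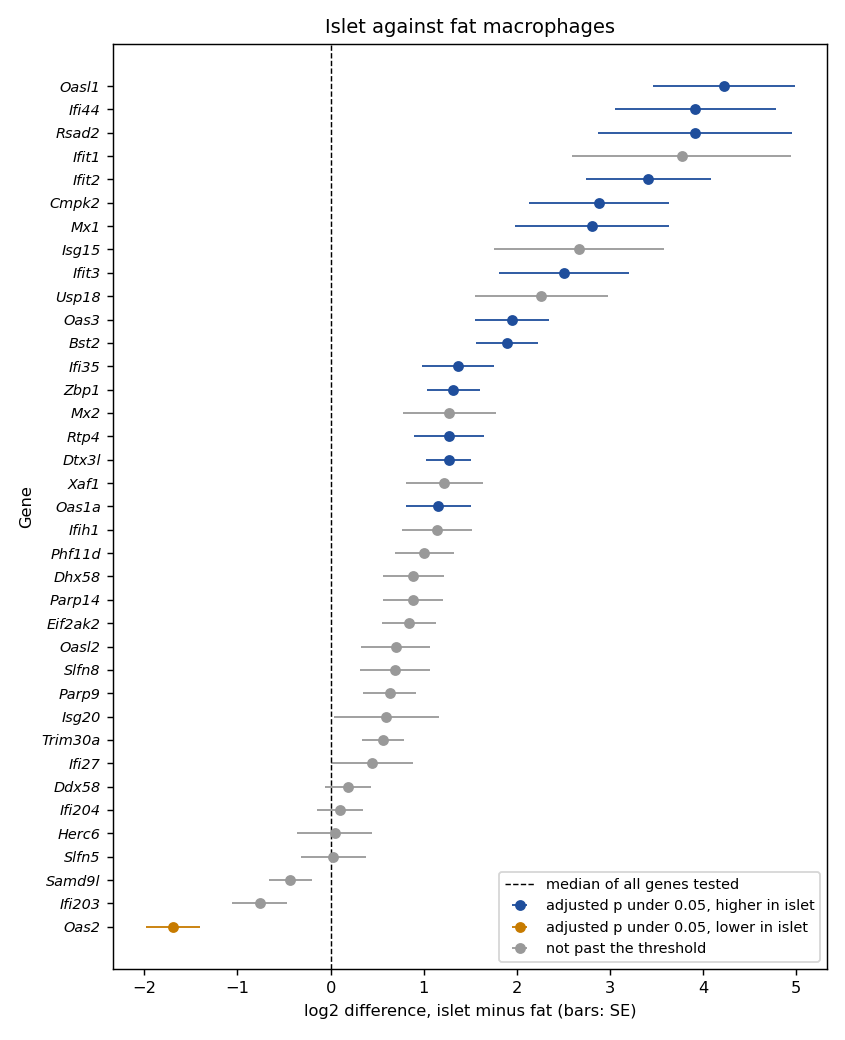
Fitted log2 difference (horizontal axis, islet minus fat) of each of the 37 genes, with bars for the SE and colour for the call by edgeR's quasi-likelihood test (3 islet and 3 fat libraries). Most estimates lie to the right of the dashed median of all genes tested, and Oas2 is the 1 gene called lower.

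The islet libraries differed among themselves, by a median of 2.45-fold between the highest and the lowest library over the 37 genes and of 2.13-fold over all genes tested. Of the 37 genes, 31 were highest in islet library 6 (83.8%, against 37.6% of all genes tested), 5 in library 4 and Xaf1 in library 2. Library 4 was lowest for 19 genes (51.4%, against 38.5% of all genes) and library 2 for 14 (37.8%, against 27.0%). The ratio of islet library 6 to the mean of islet libraries 2 and 4, on CPM plus 0.5, had a median of 1.72 over the 37 genes and of 1 over all genes. Islet library 6 was at least 2-fold above each of the other islet libraries for 13 genes (35.1%, against 8.8% of all genes). Islet libraries 2 and 4 stood out in that way for 0 of the 37, against 4.74% and 4.84% of all genes, and a fat library did so for 0 of the 37, against 3.57% of all genes. No label but their number separates the islet libraries, so this is a description of 3 libraries with no test. The limit of 2-fold was set with the counts already seen.

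The 13 genes were Ifit1, Rsad2, Isg15, Mx1, Cmpk2, Ifit3, Usp18, Oasl1, Ifit2, Mx2, Ifih1, Slfn8 and Oasl2, in falling order of that ratio, from 20.6 for Ifit1 to 2.31 for Oasl2. Just inside the limit Oasl2 and Slfn8 were 2.05 and 2.17 times the higher of the other islet libraries, and just outside it Slfn5 and Parp14 were 1.79 and 1.62 times. The 13 genes took 0.0512% of all counts in islet library 2 (exact 95% binomial interval 0.0494 to 0.0531), 0.0344% in library 4 (0.0327 to 0.0363) and 0.311% in library 6 (0.307 to 0.315), against 0.0245% to 0.0314% in the fat libraries. The other 24 genes took 0.129%, 0.140% and 0.244% in islet libraries 2, 4 and 6 and 0.126% to 0.166% in the fat libraries. Such intervals hold the counting error within a library alone and no spread between libraries. They may be too narrow even for that, because reads lacking molecular identifiers may copy 1 molecule. The 13 genes were picked for their level in islet library 6, so these shares describe the size of that level and support nothing further.

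**Figure D2:**
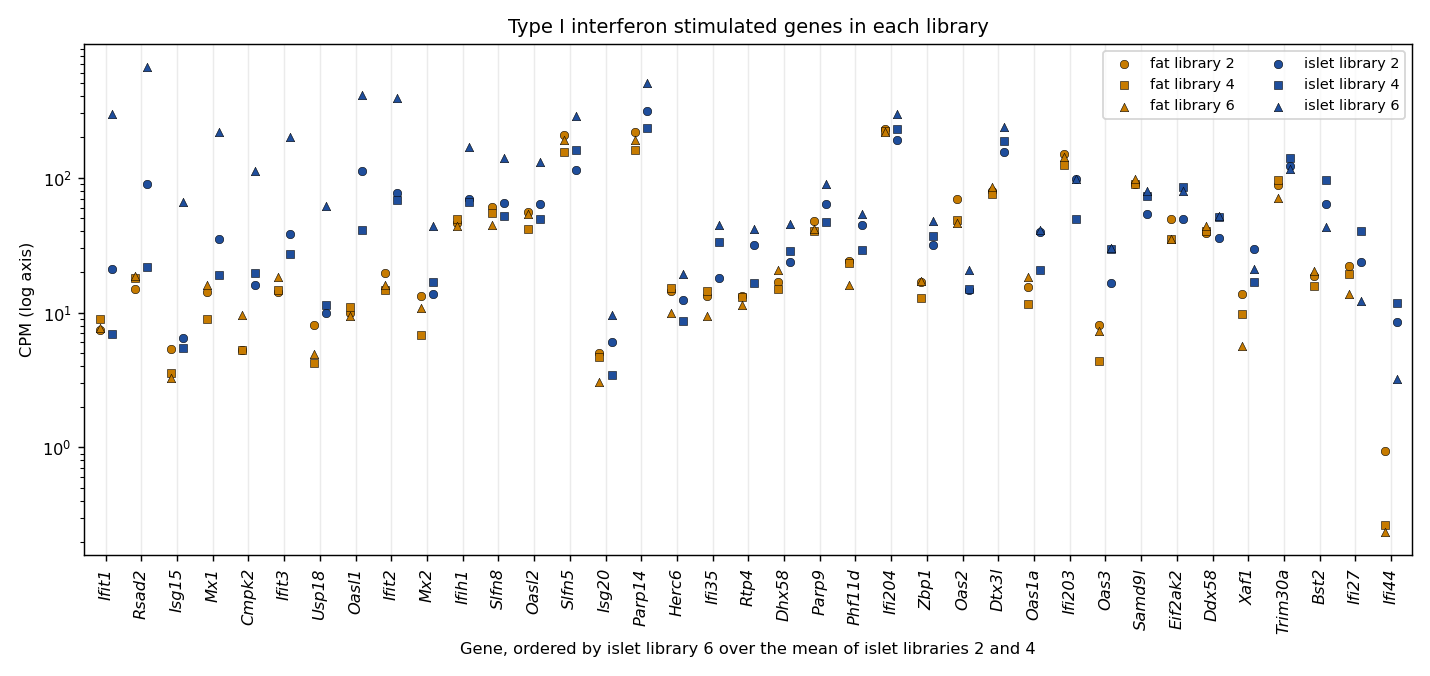
Level of each of the 37 genes in every library, in CPM on a log axis, with fat in orange, islet in blue and the marker shape giving the library number. Islet library 6 (blue triangles) stands far above the rest at the left, as for Rsad2 with 659 CPM against 14.8 to 90.1 CPM in the other libraries, and is the lowest islet library for Bst2, Ifi27 and Ifi44 at the right.

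**Figure D3:**
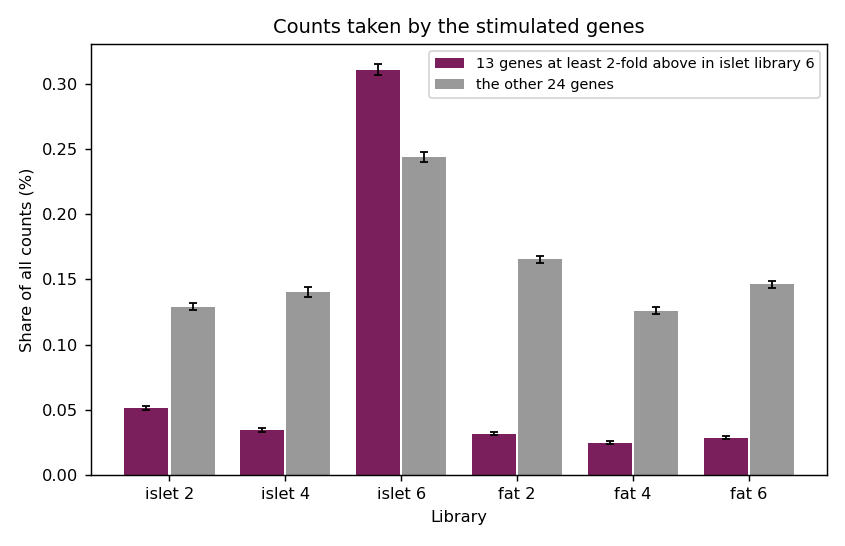
Share of all counts (vertical axis, %) taken in each library by the 13 genes that were at least 2-fold above in islet library 6 (purple) and by the other 24 (grey), with exact 95% binomial intervals. The purple bar reaches 0.311% in islet library 6 and 0.0512% or less in the other libraries.

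**Figure D4:**
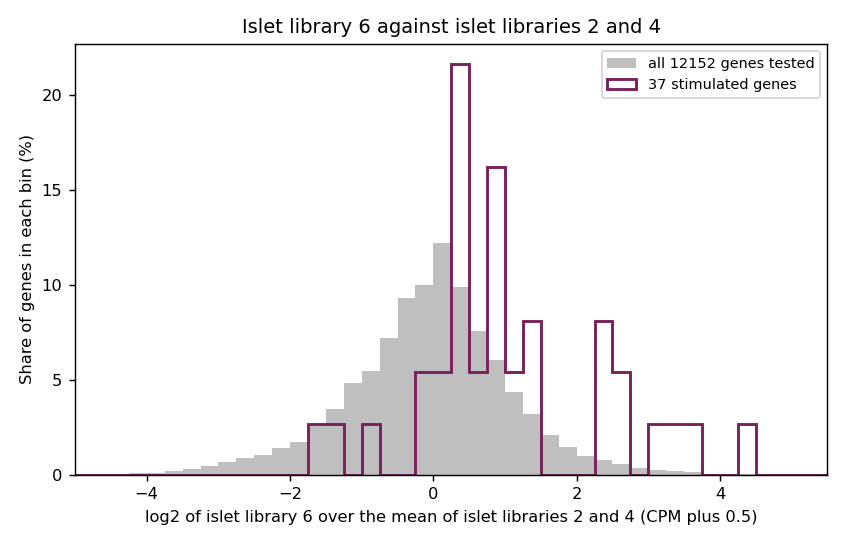
Distribution of the log2 ratio of islet library 6 to the mean of islet libraries 2 and 4 (CPM plus 0.5), as the share of genes in each bin, for all 12152 genes tested (grey) and for the 37 stimulated genes (purple line). The stimulated genes are shifted to the right, with a tail that ends at Ifit1.

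Other features also set islet library 6 apart from islet libraries 2 and 4. The heat shock list took 11.3%, 11.7% and 1.26% of counts in islet libraries 2, 4 and 6, against 0.408% to 0.431% in fat. The 6 beta cell markers summed to 7874, 4998 and 2682 CPM in islet libraries 2, 4 and 6 and to 0 to 4.91 CPM in fat. The 12 immediate early genes summed to 8071, 10107 and 2088 CPM in the islet libraries and to 21242 to 23673 CPM in fat. Library 6 was thus the islet library with the least RNA of all 3 kinds. Their part in the spread of the stimulated genes was not tested.

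RefSeq windows from 250 bases before to 50 bases after a start site were found for 26 of the 37 genes on GRCm38.p6. They were searched on both strands for GAAANNGAA, the 9-letter core of the interferon-stimulated response element, with overlapping matches counted separately. Of the 26 genes, 16 held at least 1 match (61.5%, against 9.76% of 27025 genes) and 9 held 2 or more (34.6%, against 0.736%). Per window of 300 bases the share was 56.2% of 32 windows of these genes and 8.56% of all 32851. The windows of 6 genes are shown, read 5′ to 3′ along the gene with the matched letters in capitals: Ifit1, Ifit3, Isg15 and Rsad2 because they had the largest ratios of islet library 6 among genes with a match, and Bst2 and Ifi44 because, of the genes called higher, they were lowest in that library.
Ifit1, chr19:34640639-34640938: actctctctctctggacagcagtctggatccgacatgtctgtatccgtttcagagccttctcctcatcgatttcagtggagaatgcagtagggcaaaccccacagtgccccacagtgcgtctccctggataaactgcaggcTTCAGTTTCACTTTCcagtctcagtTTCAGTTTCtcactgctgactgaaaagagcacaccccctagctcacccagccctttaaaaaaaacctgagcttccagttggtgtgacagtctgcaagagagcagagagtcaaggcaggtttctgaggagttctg
Ifit3, chr19:34583279-34583578: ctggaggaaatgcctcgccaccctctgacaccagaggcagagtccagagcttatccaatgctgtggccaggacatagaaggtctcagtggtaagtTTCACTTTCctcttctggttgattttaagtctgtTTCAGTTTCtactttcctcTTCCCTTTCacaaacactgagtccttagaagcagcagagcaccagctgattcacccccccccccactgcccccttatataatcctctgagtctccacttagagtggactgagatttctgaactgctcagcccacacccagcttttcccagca
Isg15, chr4:156200769-156201068: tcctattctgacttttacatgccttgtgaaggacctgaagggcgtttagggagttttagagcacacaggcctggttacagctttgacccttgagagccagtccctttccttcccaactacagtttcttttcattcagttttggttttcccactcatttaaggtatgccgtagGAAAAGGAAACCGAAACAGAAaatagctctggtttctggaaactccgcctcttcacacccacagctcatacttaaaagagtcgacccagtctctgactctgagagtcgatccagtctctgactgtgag
Rsad2, chr12:26456403-26456702: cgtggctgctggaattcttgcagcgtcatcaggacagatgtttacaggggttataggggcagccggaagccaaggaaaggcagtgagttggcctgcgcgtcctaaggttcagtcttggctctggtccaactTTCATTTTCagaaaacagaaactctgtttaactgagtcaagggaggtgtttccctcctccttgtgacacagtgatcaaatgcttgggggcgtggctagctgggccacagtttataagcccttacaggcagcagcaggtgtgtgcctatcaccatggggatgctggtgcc
Bst2, chr8:71537423-71537722: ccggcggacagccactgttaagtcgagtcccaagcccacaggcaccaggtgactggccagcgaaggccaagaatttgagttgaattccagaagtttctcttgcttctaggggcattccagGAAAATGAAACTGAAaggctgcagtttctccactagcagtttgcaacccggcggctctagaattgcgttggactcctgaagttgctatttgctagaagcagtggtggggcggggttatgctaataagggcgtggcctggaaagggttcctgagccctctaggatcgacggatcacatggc
Ifi44, chr3:151749861-151750160: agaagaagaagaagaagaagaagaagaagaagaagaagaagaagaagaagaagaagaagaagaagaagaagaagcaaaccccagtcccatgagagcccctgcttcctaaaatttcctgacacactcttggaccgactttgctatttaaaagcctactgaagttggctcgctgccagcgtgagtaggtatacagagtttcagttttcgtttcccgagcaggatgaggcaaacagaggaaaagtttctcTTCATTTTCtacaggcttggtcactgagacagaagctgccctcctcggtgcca
In Ifit1 and Ifit3 the 3 matches lie on the opposite strand, all before the start site. In Isg15 they overlap into a single run on the gene's own strand, and in Bst2 the 2 matches overlap likewise. A match is a description of letters and not evidence of binding, and its absence says only that these letters are not in the window. Matches occurred in both groups: 6 of 10 genes in the group with high levels in islet library 6 held one and 10 of 16 of the other genes, and Oasl1, Cmpk2 and Ifit2 had high levels there with no match in this window. The median ratio of islet library 6 was 1.87 among the 10 genes with 0 matches, 1.26 among the 7 with 1 match and 2.10 among the 9 with 2 or more.

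**Figure D5:**
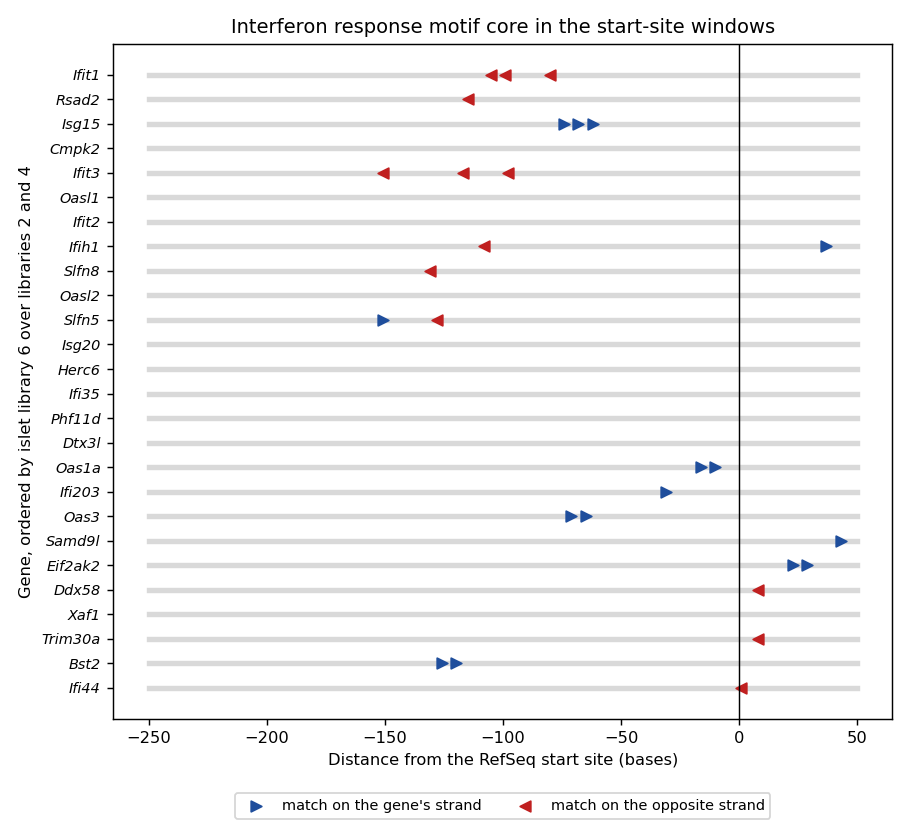
Position of each match to the response element core (triangles, blue on the gene's strand and red on the opposite strand) by distance in bases from the RefSeq start site, for 26 genes ordered from the largest ratio of islet library 6 at the top. Genes with and without a match occur along the whole order, with 3 matches in Ifit1 at the top and 2 in Bst2 near the bottom.

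The Ifit genes, whose products bind viral RNA and block its translation, were among those with the largest differences. Ifit2 had 76.6, 67.9 and 387 CPM in the islet libraries numbered 2, 4 and 6, against 19.5, 14.6 and 15.9 CPM in fat libraries 2, 4 and 6. Every islet library was above every fat library, and the gene rose 10.6-fold (log2 3.41 ± 0.67, SE, edgeR adjusted p = 0.00841). It missed the threshold without fat replicate 4 (adjusted p = 0.0546), and its difference was 2.11 without islet replicate 6. Ifit3 stood at 38.1, 26.9 and 199.5 CPM in islet and 14.1, 14.6 and 18.2 CPM in fat libraries and rose 5.67-fold (edgeR adjusted p = 0.0359). Its groups did not overlap, but it passed in no fit without 1 fat library (adjusted p = 0.107 to 0.144), nor in limma voom (0.0630), and its log2 difference fell from 2.50 to 1.05 without islet replicate 6. Ifit1 (GRCm38 chromosome 19, 34640871 to 34650009) had 21.0, 6.88 and 296 CPM in islet and 7.38, 8.89 and 7.65 CPM in fat libraries. Its estimate of 3.77 ± 1.17 did not pass (edgeR adjusted p = 0.0541). Islet library 4 lay below all fat libraries and islet library 6 far above them. Without islet replicate 6 the Ifit1 estimate was 0.82, and without islet replicate 4 it passed (adjusted p = 0.0120). With all libraries kept, Ifit1 passed in DESeq2 (adjusted p = 0.0266), with no filter (edgeR, 3.21e-22) and with a 1 CPM filter (edgeR, 0.0499). It did not pass in limma voom (0.222), with RLE size factors (edgeR, 0.0565) or with the replicate number as a block (edgeR, 0.233). Ifit1 and Ifit3 have close copies, Ifit1bl1 and Ifit3b, with which reads can be shared.

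Rsad2, which encodes viperin, an enzyme that makes a chain-terminating nucleotide, lies beside Cmpk2, a mitochondrial nucleotide kinase, on chromosome 12 (26442746 to 26456452 and 26469204 to 26479837), and the pair is transcribed in opposite directions. Rsad2 had 90.1, 21.8 and 659 CPM in islet libraries 2, 4 and 6 and 14.8, 18.0 and 18.6 CPM in fat, the widest range in CPM of the 37 genes. It rose 15.0-fold (log2 3.91 ± 1.04, edgeR adjusted p = 0.0307), but not with the replicate number as a block (adjusted p = 0.0891), nor without any 1 fat library (0.108 to 0.131), nor in limma voom (0.116). Cmpk2 had 16.1, 19.5 and 113 CPM in islet and 5.30, 5.31 and 9.65 CPM in fat libraries and rose 7.38-fold (edgeR adjusted p = 0.0278). Without 1 fat library its adjusted p was 0.0722 to 0.125, and in limma voom 0.0553. Both genes still passed without islet replicate 6, where the log2 differences were 1.71 for Rsad2 and 1.39 for Cmpk2. Rsad2 was close to the fat range in islet library 4, whereas Cmpk2 was at about the same level in islet libraries 2 and 4.

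The Mx genes encode dynamin-like GTPases that restrict viruses, and most inbred laboratory mouse strains carry a disrupted Mx1. The gene annotation lists Mx2 as a polymorphic pseudogene and not as a protein-coding gene. Mx1 stood at 35.1, 18.9 and 220.0 CPM in islet and 14.2, 9.02 and 16.1 CPM in fat libraries, with no overlap, and rose 6.99-fold (log2 2.81 ± 0.82, edgeR adjusted p = 0.0440). That call was lost without islet replicate 6 (adjusted p = 0.0681, log2 1.04), without any 1 fat library (0.120 to 0.17) and in limma voom (0.0930). Mx2 had 13.7, 16.9 and 43.9 CPM in islet and 13.3, 6.77 and 10.8 CPM in fat libraries and did not pass (edgeR adjusted p = 0.114). Islet library 2 exceeded the highest fat library only narrowly for Mx2.

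The oligoadenylate synthetases, which make short oligoadenylates when they bind double-stranded RNA, went both ways. Oasl1, a relative that has lost the enzyme activity and restrains translation of Irf7, had the largest fitted difference of the 37 genes. Ifi44 exceeded it without islet replicate 6 (log2 4.28 against 2.92 for Oasl1), without fat replicate 2 (4.84 against 4.19), with the replicate block (3.99 against 3.61), and the genes were level in limma voom (3.64 for both). Oasl1 stood at 112, 40.7 and 413 CPM in islet and 9.93, 11 and 9.41 CPM in fat libraries, and rose 18.6-fold (log2 4.22 ± 0.76, SE, edgeR adjusted p = 0.00587). Oasl1 passed under each of the 16 alternatives run, with log2 differences from 2.92 without islet replicate 6 to 5.27 with islet replicates 2 and 4 both left out. Oas3 had 16.5, 29.8 and 30.2 CPM in islet and 8.04, 4.38 and 7.29 CPM in fat libraries and rose 3.86-fold (edgeR adjusted p = 0.0100, and 0.0628 without fat replicate 4). Its rise did not rest on islet library 6, since libraries 4 and 6 were nearly equal. Oas1a had 39.3, 20.6 and 41.0 CPM in islet and 15.5, 11.5 and 18.4 CPM in fat libraries and rose 2.23-fold, with edgeR adjusted p = 0.0496, the value closest to the threshold. It was lost without islet replicate 2 or 6 (0.131 and 0.0671), without any 1 fat library (0.102 to 0.215), with RLE size factors (0.0559) and without mitochondrial ribosomal RNA genes (0.0566).

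Oas2 was the 1 gene of the set called lower in islet. It had 14.7, 14.9 and 20.7 CPM in islet and 68.9, 48.8 and 46.0 CPM in fat libraries, 3.24-fold lower (log2 -1.69 ± 0.29, edgeR adjusted p = 0.00427), and passed under all 16 alternatives. Even in islet library 6, where most of the set was high, Oas2 was below every fat library. Oas1a, Oas2 and Oas3 lie in a single cluster on chromosome 5 (Oas2 at 120730333 to 120749853, Oas3 at 120753098 to 120777661), so neighbours of that cluster were called in opposite directions. Oasl2 had 63.9, 49.3 and 131 CPM in islet and 55.6, 41.9 and 53.5 CPM in fat libraries and did not pass (edgeR adjusted p = 0.230). Oas1a shares sequence with Oas1g.

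Isg15, a ubiquitin-like protein that is attached to other proteins, and Usp18, the protease that removes it and also dampens the receptor, were both highest in islet library 6. Isg15 stood at 6.45, 5.45 and 65.6 CPM in islet and 5.39, 3.58 and 3.29 CPM in fat libraries. Usp18 stood at 9.88, 11.5 and 61.4 CPM in islet and 8.13, 4.25 and 4.94 CPM in fat libraries. For both, every islet library exceeded every fat library, but libraries 2 and 4 did so by little, and neither gene passed (edgeR adjusted p = 0.0749 and 0.0579). Without islet replicate 4 both passed (0.0280 and 0.0301), and without islet replicate 2 Usp18 passed (0.0431). Without islet replicate 6 their log2 differences were 0.53 and 0.87, down from 2.67 and 2.26. With all libraries kept, both passed with no filter (edgeR, 5.06e-07 and 1.07e-05), and Usp18 passed in DESeq2 (0.0132). Neither passed in limma voom (0.173 and 0.0980) or with the replicate number as a block (edgeR, 0.242 and 0.116). Herc6, the main ligase for Isg15 in mouse, had 12.3, 8.60 and 19.4 CPM in islet and 14.4, 15.1 and 9.88 CPM in fat libraries, with overlapping groups and a log2 difference of 0.04 ± 0.40.

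Dtx3l, a ubiquitin ligase that works as a complex with Parp9, rose in islet macrophages. It had 154, 187 and 237 CPM in islet and 80.0, 75.4 and 84.6 CPM in fat libraries and was 2.41-fold higher (log2 1.27 ± 0.24, edgeR adjusted p = 0.00733). It missed the threshold without fat replicate 2 or 4 (0.0555 and 0.0677) and kept a log2 difference of 1.08 without islet replicate 6. Parp9 had 63.5, 47.0 and 89.9 CPM in islet and 47.5, 40.2 and 41.6 CPM in fat libraries and did not pass (edgeR adjusted p = 0.158). The genes share a start region on chromosome 16 and 8% of the exonic length of Dtx3l overlaps Parp9 on the opposite strand. Parp14, an ADP-ribosyltransferase, had 311, 233 and 504 CPM in islet and 216, 159 and 192 CPM in fat libraries, without overlap, and did not pass (edgeR adjusted p = 0.0925). Parp14 and Parp9 passed without islet replicate 4 (0.0309 and 0.0452).

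Among the 6 genes grouped here as sensors of nucleic acid, Zbp1 alone passed, where 8.97% of all genes were called higher. The oligoadenylate synthetases and Eif2ak2, which also bind double-stranded RNA, were grouped with the effectors. Zbp1, which binds Z-form nucleic acid and can trigger cell death, had 31.4, 37 and 47.8 CPM in islet and 16.7, 12.9 and 17.1 CPM in fat libraries and rose 2.49-fold (log2 1.32 ± 0.29, edgeR adjusted p = 0.0132, and 0.0542 to 0.0910 without 1 fat library). The RNA helicase Ifih1 (MDA5) had 69.3, 66.2 and 169 CPM in islet and 45.9, 49.5 and 43.5 CPM in fat libraries. It did not pass (edgeR adjusted p = 0.0667, and 0.0303 without islet replicate 4). With all libraries kept, Ifih1 passed in DESeq2 (0.0401) and with no filter (edgeR, 0.00706), but not in limma voom (0.0695). Dhx58 (LGP2), a regulator of these helicases, had 23.6, 28.7 and 45.0 CPM in islet and 16.9, 15.0 and 20.7 CPM in fat libraries (adjusted p = 0.0926). For both helicases the groups did not overlap. Ddx58 (RIG-I) had 35.9 to 51.6 CPM in islet and 38.7 to 43.6 CPM in fat libraries, a log2 difference of 0.18 ± 0.25. The HIN-200 family genes Ifi204 and Ifi203, which encode DNA-binding proteins, had log2 differences of 0.10 ± 0.25 and -0.76 ± 0.30. Ifi203 was below fat in every islet library, at 97.0, 49.6 and 97.9 CPM against 149, 124 and 143 CPM, and was called lower only without islet replicate 6 (edgeR adjusted p = 0.0429). Members of this family share sequence.

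Bst2 and Ifi44 rose in islet macrophages with islet library 6 at the bottom of the islet range. Bst2, the tetherin that holds budding virus at the cell surface, had 64.1, 96.0 and 43.2 CPM in islet libraries 2, 4 and 6 and 18.6, 15.7 and 20.4 CPM in fat. It rose 3.71-fold (log2 1.89 ± 0.33, edgeR adjusted p = 0.00500) and passed under all 16 alternatives. Bst2 is also a surface marker of plasmacytoid dendritic cells, and Siglech, a gene of those cells and of some macrophages, stood at 173, 266 and 124 CPM in islet and 23.4 to 38.3 CPM in fat libraries, in the same order as Bst2 in the islet libraries. The other defining markers of plasmacytoid dendritic cells, Ccr9 and Cox6a2, were at 0 in islet library 4 and at most 1.61 CPM in any library, and 1 of the 8 markers passed the filter. The part of such cells in Bst2 was not tested. Ifi44 had 8.47, 11.8 and 3.23 CPM in islet and 0.946, 0.265 and 0.235 CPM in fat libraries, which rest on 42, 41 and 24 counts in islet and 10, 2 and 2 in fat. It rose (log2 3.92 ± 0.87, edgeR adjusted p = 0.0142) but missed the threshold without fat replicate 4 or 6 (0.0761 and 0.0641) and with islet replicates 2 and 4 both left out (0.122).

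Rtp4, a chaperone of receptors that also has antiviral activity, and Ifi35, the partner of Nmi, rose 2.41-fold and 2.58-fold (edgeR adjusted p = 0.0436 and 0.0380). Rtp4 had 31.6, 16.6 and 41.9 CPM in islet and 11.3 to 13.2 CPM in fat libraries, and Ifi35 had 17.9, 33.3 and 44.6 CPM in islet and 9.41 to 14.5 CPM in fat. Neither gene overlapped between tissues. Both calls were lost with the replicate number as a block (0.0812 and 0.0703), without islet replicate 6 (0.0706 and 0.0604) and without any 1 fat library (0.148 to 0.156 for Rtp4, 0.117 to 0.149 for Ifi35). Rtp4 also missed without islet replicate 2 (0.101) and Ifi35 without islet replicate 4 (0.0554). Opposite-strand overlap with Gm11626 covers 16.8% of the exonic length of Ifi35, and 13.9% of Rtp4 overlaps Gm45338 on the same strand.

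The remaining genes did not pass. Eif2ak2, the kinase PKR that stops translation when it binds double-stranded RNA, had 49.2, 85.7 and 80.0 CPM in islet and 49.5, 35.3 and 35.2 CPM in fat libraries (edgeR adjusted p = 0.0774), and it passed without islet replicate 2 (0.0413). Phf11d and Xaf1 had groups that did not overlap, at 29.2 to 53.8 against 16.0 to 24.2 CPM and at 16.9 to 29.8 against 5.65 to 13.6 CPM. Their edgeR adjusted p was 0.0554 and 0.0727, and both passed without islet replicate 4 (0.0199 and 0.0477). With all libraries kept, both passed in DESeq2 (0.0355 and 0.0470) and in limma voom (0.0418 and 0.0498). Neither passed with the replicate number as a block (edgeR, 0.100 and 0.0669). Trim30a, a regulator of Toll-like receptor signalling, was almost level within islet (117 to 140 CPM) and above fat (71.2 to 95.7 CPM), with a log2 difference of 0.57 ± 0.23. Samd9l, an inhibitor of translation, was below fat in every islet library, at 53.6 to 79.9 against 89.8 to 97.6 CPM, with a log2 difference of -0.43 ± 0.24. The Schlafen genes Slfn5 and Slfn8 overlapped with the fat range, at 113 to 289 and 51.6 to 141 CPM in islet against 156 to 207 and 44.6 to 60.3 CPM in fat. Isg20, an exonuclease, and Ifi27 also overlapped between tissues, at 3.44 to 9.57 against 3.06 to 5.01 CPM and at 12.1 to 40.1 against 13.8 to 22.2 CPM. Ifi27 was lowest in islet library 6.

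Scaled by exonic length, the order of the genes differed between tissues. In fat macrophages Ifi204 led with 62.6 ± 1.33 CPM per kilobase (SD, n = 3), followed by Slfn5 with 29.1 ± 4.14, and Trim30a, Ifi203, Parp14 and Bst2 lay together between 20.2 and 20.7 CPM per kilobase, closer than their spread. In islet macrophages the highest means were Bst2 with 75.1 ± 29.4, Oasl1 with 72.2 ± 75.7, Ifi204 with 67.3 ± 15.2 and Rsad2 with 59.3 ± 80.7 CPM per kilobase, which do not differ beyond their spread. Oasl1 and Rsad2 stood at 3.88 ± 0.31 and 3.96 ± 0.47 CPM per kilobase in fat. Ifi204 was therefore abundant in both tissues, while Oasl1 and Rsad2 were far below Ifi204 in fat. Other genes were lower still in fat, such as Oas3 with 0.93 and Ifi44 with 0.079 CPM per kilobase.

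Of 21 interferon ligand genes, 18 had no count in any library and none passed the filter. Ifnb1, interferon beta, had 12, 5 and 1 counts in islet libraries 2, 4 and 6 and 0 in each fat library, where a count of 0 allows up to 3 counts. Ifng and Ifnz had 1 and 2 counts in all, in fat. The Ifnb1 counts are highest in the islet library that was intermediate for Rsad2 and lowest in the one where Rsad2 was highest. At these counts the interferon genes themselves cannot be compared between tissues.

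Of 18 receptor and signal genes tested, 6 were higher, 1 was lower and 11 did not pass, with a median log2 difference of 0.38, and 2 were at least 2-fold above in islet library 6. Of all genes, 8.97% were higher, 10.5% lower and 8.8% at least 2-fold above in that library, so the last 2 counts for the signal genes were near those shares. Ifnar2 had 178, 112 and 143 CPM in islet and 45.0 to 50.3 CPM in fat libraries (log2 1.61 ± 0.25), while Ifnar1, the other receptor chain, had 191, 113 and 246 CPM in islet and 145 CPM in each fat library (log2 0.34 ± 0.30, edgeR adjusted p = 0.490). Irf9 rose (log2 0.95 ± 0.23, adjusted p = 0.0202) with 133.8, 115 and 95.2 CPM in islet and was lost without islet replicate 2 or any 1 fat library (0.0624 to 0.125). Stat2 had 40.9, 37.6 and 91.2 CPM in islet and 40.3 to 57.0 CPM in fat libraries (adjusted p = 0.696). Jak1 and Tyk2 had log2 differences of -0.31 ± 0.28 and -0.11 ± 0.27. Ifngr2, a chain of the receptor for interferon gamma, rose (log2 1.78 ± 0.27, edgeR adjusted p = 0.00281). Socs3, a feedback inhibitor, fell by 1.71 ± 0.43 on the log2 scale (edgeR adjusted p = 0.0257, and 0.0587 to 0.100 without islet replicate 2 or 1 fat library).

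Of 28 sensing genes outside the set, 6 were higher, 2 lower and 20 not past, with a median of 0.25, against 8.97% higher and 10.5% lower over all genes. The adaptors Traf3 and Ticam1 and the DNA sensor Tlr9 rose (log2 2.17 ± 0.33, 2.30 ± 0.40 and 1.84 ± 0.32, edgeR adjusted p = 0.00279, 0.00465 and 0.00499). The RNA sensors Tlr7 and Tlr8 fell by 1.04 ± 0.21 and 1.26 ± 0.29 (edgeR adjusted p = 0.0100 and 0.0175). Tlr7 missed the threshold without fat replicate 2 or 6 (0.0606 and 0.0525), and Tlr8 without islet replicate 2 (0.0608) or any 1 fat library (0.0549 to 0.0788). Irf7, the factor that amplifies interferon production, had 28.6, 42.1 and 41.4 CPM in islet and 15.8 to 22.4 CPM in fat libraries (log2 0.99 ± 0.29, edgeR adjusted p = 0.0415, but 0.0736 with the replicate number as a block, 0.0518 with RLE size factors, 0.0708 with no filter, 0.0513 without mitochondrial ribosomal RNA genes, 0.0684 without islet replicate 4 and 0.0894 to 0.210 without 1 fat library). Irf3 did not pass (adjusted p = 0.389).

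Of 63 further interferon-stimulated genes, 16 were higher, 7 lower and 40 not past, with a median of 0.48, and 11 were at least 2-fold above in islet library 6. The count of lower genes was near the 10.5% of all genes, while 8.97% of all genes were higher and 8.8% at least 2-fold above in that library. Cd69, Psme1, a proteasome activator subunit, and Tor3a had the smallest adjusted p among those that rose (log2 4.78 ± 0.62, 1.80 ± 0.26 and 2.24 ± 0.34). Among those that fell were Gm4951 and Ddx60, with log2 differences of -5.84 ± 0.66 and -2.51 ± 0.41. Of 22 genes known mainly as targets of interferon gamma, 6 were higher, 3 lower and 13 not past, with a median of 0.48 and 5 at least 2-fold above in islet library 6, to be read against the same shares. Gbp3, Gbp8 and Gbp4 rose (log2 2.39 ± 0.24, 4.59 ± 0.63 and 2.98 ± 0.52), while Gbp7 and Iigp1 fell (log2 -1.84 ± 0.26 and -2.34 ± 0.57). Gbp2b was listed at 0 in each islet library and at 3.05 to 6.94 CPM in fat, and was called lower (edgeR adjusted p = 0.00778, and 0.0534 without fat replicate 2). Iigp1 missed the threshold without fat replicate 2 (0.137) or islet replicate 2 (0.0605). Guanylate-binding proteins share sequence.

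Markers of other cells were present at different levels. The defining T cell markers Cd3e, Cd3g and Cd3d, the neutrophil markers S100a8, S100a9 and Ly6g and the B cell marker Cd79a were at 0 in all 3 islet libraries. The T cell list of 8 genes summed to 6.59 to 20.2 CPM in islet and 13 to 20.4 CPM in fat. The neutrophil list of 7 summed to 50.7 to 87.9 and 28.4 to 37.6 CPM. Of those 7 only Csf3r passed the filter, and it was called higher in islet. The B cell list of 7 summed to 38 to 222 and 167 to 243 CPM, lowest in islet library 6. The 8 conventional dendritic cell markers summed to 17.5 to 29.6 CPM in islet and 105 to 112 CPM in fat, the 6 natural killer markers to at most 0.403 and 3.4 CPM, and 6 acinar markers to 5.24 to 66.8 and 1.61 to 2.65 CPM. The 4 alpha cell markers summed to 738, 555 and 105 CPM in islet libraries 2, 4 and 6, against no more than 0.235 CPM in fat. Macrophage markers, 11 genes, summed to 8442 to 13364 CPM in islet and 10523 to 13804 CPM in fat. The 9 monocyte markers summed to 113 to 253 CPM in islet, lowest in library 6, and to 3380 to 4252 CPM in fat. Of the defining ones, Ly6c2 was at 0 in islet and at most 0.471 CPM in fat, and Chil3 at most 0.806 and 4.26 CPM. Ccr2 had 41.2 to 136 CPM in islet and 210 to 361 CPM in fat, so most of the fat sum lay in other genes of the list. F13a1, Ccr2 and Ace were called lower in islet and Spn higher. The 8 plasmacytoid dendritic cell markers summed to 125 to 267 CPM in islet, nearly all of it Siglech, and 24.5 to 38.6 CPM in fat. Fat libraries held 51.9 to 238 CPM of 6 adipocyte markers, 86.5 to 376 CPM of 6 fibroblast markers and 30.6 to 166 CPM of 7 endothelial markers, against at most 0.404, 2.58 and 26.4 CPM in islet. The part of these cells in the differences between tissues was not tested.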

How the data were processed

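RNA from sorted islet and fat macrophages, 3 libraries each, was made into libraries from 10 ng with a strand-marking kit for low input, per the labels' protocols. The deposited values are raw counts of reads per gene. The submitters' processing notes name STAR, featureCounts, Subread 1.6.4 and GRCm38, with annotation and strandedness, not given in the sources used here, unknown, so overlapping genes may share reads. Identifiers matched GENCODE M21 without version for 99.6% of 50600 rows, which gave positions and exon lengths.

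Counts were fitted in R 4.3.3 with edgeR 4.0.16 (filterByExpr, TMM factors, robust quasi-likelihood, tissue as the only term), and p-values were Benjamini-Hochberg adjusted over the 12152 genes tested at 0.05. CPM uses TMM-scaled library sizes, folds are fitted values, and SEs follow from the estimate and its F statistic. The code was tested on simulated data. Alternatives were DESeq2 1.42.0, limma voom 3.58.1, RLE and upper-quartile factors, other filters, a replicate block, left-out libraries, and heat shock or mitochondrial ribosomal RNA genes left out. Depth was 4089980 to 9235591 counts.

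The design text calls the tissues autologous and batch labels repeat in both, so equal numbers were taken as 1 animal. Deviations from tissue means correlated by 0.05, 0.06 and -0.01 for numbers 2, 4 and 6. Pairs of unlike number ranged from -0.14 to 0.10, so these values do not single out equal numbers. The members, lists and 2-fold limit were chosen with earlier results of these data known. Named genes were all members, the 3 smallest adjusted p in each direction of each pathway list, 10 core pathway genes and the sort markers. Of marker lists, sums and defining genes are given. Some genes that this rule takes are not reported here. Motifs were searched in RefSeq windows with Python 3.11.15. No sample was left out.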

Additional observations from a re-analysis of the deposited data

How the results depend on the processing

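Direction was the same under every alternative for each of the 15 genes called; counts moved more. Genes of the set called higher numbered 14 and ranged from 2 to 21 when a single library was left out, while those called lower ranged from 1 to 2. The 2 came without fat replicate 4 and the 21 without islet replicate 4, where 3.66% and 10.8% of all genes were called higher. With islet replicates 2 and 4 both left out, 25 genes of the set, 27 of the further stimulated genes, 10 of the signal genes and 13 of the interferon gamma targets were called higher and 4 sensing genes lower. DESeq2, limma voom and the fit without a filter called 19, 12 and 20 genes of the set higher, in fits that called 11.8%, 9.26% and 6.52% of all genes higher. With the replicate number as a block (a paired fit) 11 genes of the set were called higher and 1 lower, against 7.27% and 9.08% of all genes, so Rsad2, Rtp4 and Ifi35 were lost. Signal genes called lower rose from 1 to 2 in DESeq2, in limma voom, with no filter, with upper-quartile factors and with the replicate block. Leaving out a single library gave 5 to 17 further stimulated genes higher and 3 to 9 lower, and 4 to 6 signal genes higher and 0 to 2 lower. It gave 3 to 8 sensing genes higher and 0 to 3 lower, and 4 to 9 interferon gamma targets higher and 1 to 4 lower. These counts are to be read against the same fits over all genes, which called 3.66% to 12.7% higher and 4.71% to 15.6% lower. The cause was not tested, but leaving out a fat library also lowered the calls over all genes, from 1090 higher to 466 to 547. The count of 13 genes at least 2-fold above in islet library 6 did not change with a pseudocount of 1 CPM or RLE factors, and 29 to 31 genes were highest there. DESeq2 gave no adjusted p for Isg15. With 3 libraries per tissue, a gene that did not pass is not shown to be equal.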
